A study of Mus musculus with 9 samples.

Results

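Open chromatin of naive CD4+ T cells, helper T cells before their first encounter with antigen, was compared between mice carrying the Il21e knockout allele (Il21e_KO, 3 libraries) and wild type mice (WT, 3 libraries). These are 6 of the 9 libraries of the series, taken by their genotype labels, and they were fitted alone; the other 3 are Stat6 knockouts. All mice were C57BL/6 and untreated, and the naive cells were enriched by a negative-selection kit. The allele appears in the labels as Il21e KO and as IL21KO, with no statement of the DNA it lacks. Whether the replicates are separate animals is not given either, so the p-values rest on a spread between samples that may be technical. The assay was ATAC-seq, which marks accessible DNA by letting a loaded transposase cut and tag it. All libraries have values over the same list of 115727 peaks, placed on the mm9 mouse genome, and some peaks are empty in some libraries.

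IL-21 is a cytokine made by activated helper T cells, above all by the follicular helper cells that support B cells in germinal centres. It is encoded next to Il2 and acts through the IL-21 receptor and the common gamma chain, which activate the kinases JAK1 and JAK3 and the transcription factors STAT3 and STAT5. Naive T cells express the receptor but make little IL-21 until the T cell receptor is engaged and factors such as NFAT and AP-1 are activated.

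The promoters of the cytokine, of its neighbour Il2 and of the receptor gene Il21r are shown because the comparison starts from this locus and from the cells' ability to receive the signal. Each line gives the 250 bases before the RefSeq start on build GRCm38.p6, read 5′ to 3′ on the gene's strand; these coordinates are not comparable with the mm9 positions of the peaks. Capitals mark the NFAT core GGAAA or its reverse TTTCC.
Il21, chr3:37232637-37232886, minus strand: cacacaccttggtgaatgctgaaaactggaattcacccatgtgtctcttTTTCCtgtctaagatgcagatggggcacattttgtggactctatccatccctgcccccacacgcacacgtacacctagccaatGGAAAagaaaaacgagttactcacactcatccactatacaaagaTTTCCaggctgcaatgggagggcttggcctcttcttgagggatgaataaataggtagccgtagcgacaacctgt
Il2, chr3:37125955-37126204, minus strand: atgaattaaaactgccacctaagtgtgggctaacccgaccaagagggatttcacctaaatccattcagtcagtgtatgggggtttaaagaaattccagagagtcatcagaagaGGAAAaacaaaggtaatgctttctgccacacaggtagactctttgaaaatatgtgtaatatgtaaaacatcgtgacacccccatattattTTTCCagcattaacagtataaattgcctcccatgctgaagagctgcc
Il21r, chr7:125603179-125603428, plus strand: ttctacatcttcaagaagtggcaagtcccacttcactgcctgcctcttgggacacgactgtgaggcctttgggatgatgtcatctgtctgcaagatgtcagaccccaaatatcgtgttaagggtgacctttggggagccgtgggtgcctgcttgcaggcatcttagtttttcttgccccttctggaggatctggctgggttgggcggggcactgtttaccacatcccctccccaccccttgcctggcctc

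The Il21 window held 3 NFAT matches, the Il2 window 2 and the Il21r window 0. Of the 32851 RefSeq promoter windows of this length, 55.6% held the NFAT letters on either strand. The STAT motif TTCNNNGAA, present in 7.0% of windows, and the AP-1 motif TGANTCA, present in 6.7%, both read the same on either strand and were in none of the 3 windows. A match in letters is a description and not evidence of binding.

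Il21e_KO 1 stood apart from the other 5 libraries, and the main results are therefore given with and without it. Reads in peaks numbered 1634247, 1284426 and 1550677 in WT and 1049460, 1586954 and 1802405 in Il21e_KO. Il21e_KO 1 was the shallowest, and the group means, 1489780 ± 182687 and 1479610 ± 387781 (SD, n = 3), differed by less than the spread between libraries (exact 2-sided permutation test, p = 1). Peaks at a transcription start site (TSS) took 36.4%, 35.6% and 32.3% of the WT reads and 42.7%, 32.7% and 33.0% of the Il21e_KO reads. The groups overlapped (p = 0.8, same exact permutation test), and only Il21e_KO 1 lay above all WT libraries. It had no read in 23.5% of listed peaks, against 3.77% to 11.2% in the other 5 libraries. Its mean correlation with the others was 0.879, against 0.896 to 0.911, and it lay apart from the rest on a first principal component that held 58.1% of the variance. Its description ends in S1, where those of the other 5 end in numbers from S7 to S12, and the meaning of this number is not stated. With 3 against 3 libraries such a permutation test cannot go below p = 0.1.

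**Figure D1:**
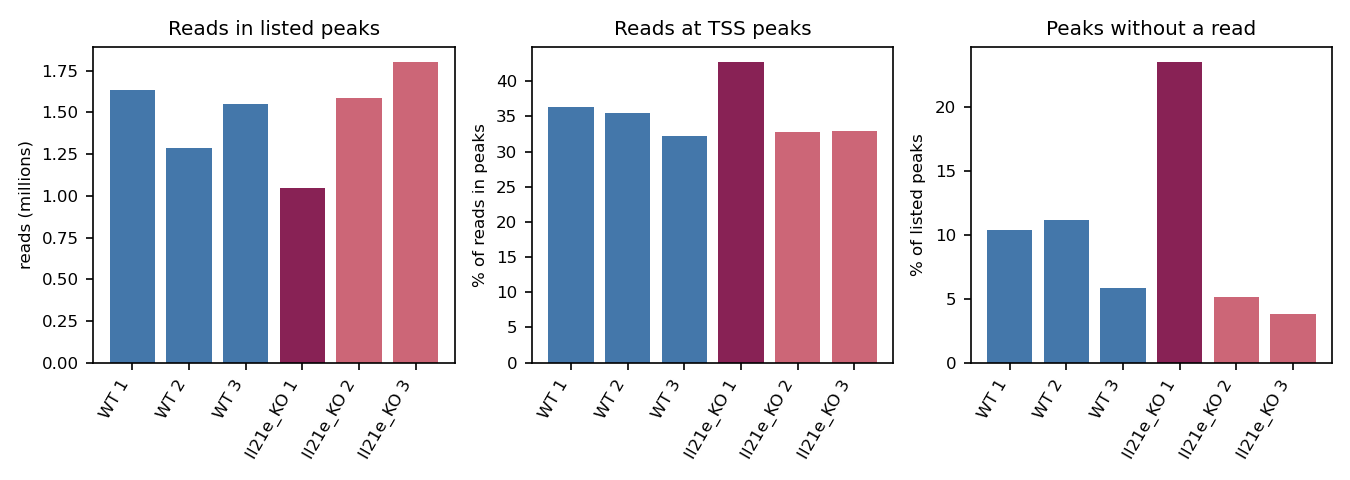
Depth and composition of the 6 libraries: bars give reads in listed peaks, the percent of those reads at TSS peaks and the percent of listed peaks without a read, 1 bar per library. Il21e_KO 1 has the fewest reads, the highest TSS share (42.7%) and the most empty peaks (23.5%).

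The difference of Il21e_KO 1 ran along the classes of peaks. Measured against the mean of the WT libraries on the log2(CPM + 1) scale, where CPM are reads scaled to a total of 1000000 in the listed peaks of a library, its tested TSS peaks were shifted by a median of 0.30 and its intergenic peaks by -0.20. The medians of Il21e_KO 2 and 3 were -0.07 and -0.07 at TSS peaks and 0.03 and 0.03 at intergenic peaks. Differences from the WT mean had the same sign in Il21e_KO 2 and 3 at 63.6% of 43784 tested peaks. For Il21e_KO 1 and 2 that share was 45.7%, and for Il21e_KO 1 and 3 it was 45.3%. The same WT mean is subtracted from each knockout library, which raises such shares by construction. They are a description and do not measure an effect of the genotype. WT 3 also had low TSS peaks, with a median of -0.15 against the other WT libraries, so the spread along this axis was not limited to the knockout. The part of this axis in the results below was not tested beyond the fits that leave the library out or carry the TSS share as a covariate.

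**Figure D2:**
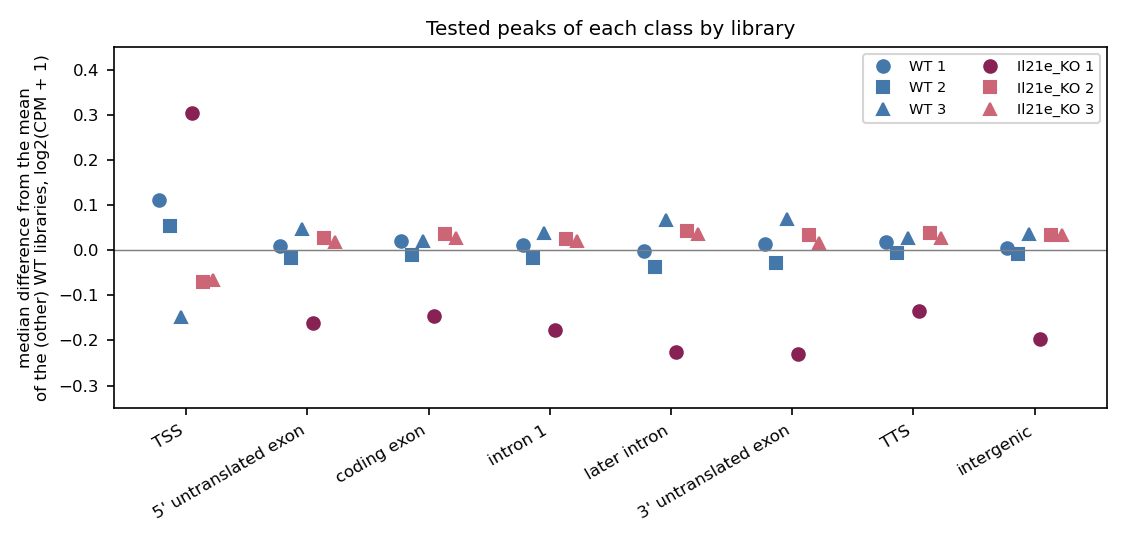
Median difference of each library from the mean of the WT libraries (for a WT library, of the other WT libraries) over the tested peaks of each class, in log2(CPM + 1); 1 symbol per library. Il21e_KO 1 lies highest at TSS peaks (0.30) and lowest in the other 7 classes, while Il21e_KO 2 and 3 lie close to each other in all 8.

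Around Il21 none of the 18 tested peaks was called, and no peak with a WT mean of at least 10 reads was empty in all Il21e_KO libraries. Il21 itself was nearly closed in both groups. The 6 listed peaks in its introns 2 and 3 and at its start (transcript at chr3:37121681-37131559, mm9) held at most 5 reads in any library, and none of them passed the filter on low counts. Their summed level was 4.28, 4.67 and 5.16 CPM in WT and 5.72, 7.56 and 6.10 CPM in Il21e_KO. All 3 knockout libraries were higher than all 3 WT libraries, by a mean of 6.46 ± 0.97 against 4.70 ± 0.44 CPM (SD, n = 3), the smallest p that the exact permutation test allows (p = 0.1), on 6 to 12 reads per library. The knockout mean was 6.83 ± 1.03 CPM without Il21e_KO 1 (SD, n = 2). The peak at the Il21 start held 1, 0 and 0 reads in WT and 0, 2 and 3 reads in Il21e_KO, values that a count of 0 with its upper limit of 3 reads does not separate.

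The Il2 promoter was open in both genotypes. Its TSS peak (chr3:37024505-37025635) held 17.1, 18.7 and 22.6 CPM in WT and 14.3, 18.9 and 22.2 CPM in Il21e_KO, with overlapping groups and a log2 fold change (knockout over WT) of -0.08 ± 0.23 (SE of the fit). Of the 43 peaks listed within 100 kb of Il21, 18 could be tested and 0 were called in any of the 27 fits. Their reads summed to 328 ± 7.33 CPM in WT and 332 ± 11.6 CPM in Il21e_KO (exact permutation p = 0.8). Of the 16 peaks with a WT mean of at least 10 reads, 0 were without reads in all 3 knockout libraries. The tallest peak, between Il2 and Il21 at chr3:37050890-37052263, held 45.9, 40.5 and 39.3 CPM in WT and 62.9, 39.7 and 39.9 CPM in Il21e_KO, where the high value is Il21e_KO 1. The peak of lowest p lay 26.9 kb before the Il21 start (chr3:37158440-37158861), with 15, 10 and 10 reads in WT and 2, 8 and 8 in Il21e_KO. That is 9.18, 7.79 and 6.45 CPM against 1.91, 5.04 and 4.44 CPM, without overlap, and a log2 fold change of -0.93 ± 0.46 (limma-trend, adjusted p = 1.00). Without Il21e_KO 1 it was -0.61 ± 0.35 (limma-trend, adjusted p = 0.898). A deletion outside the listed peaks cannot be seen in these values.

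**Figure D3:**
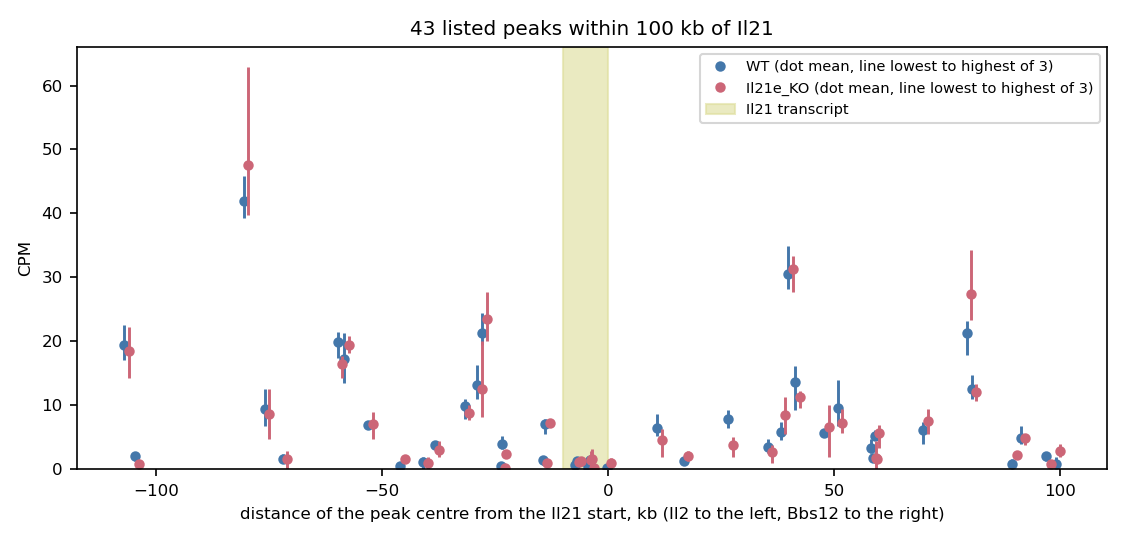
CPM of the 43 listed peaks within 100 kb of the Il21 transcript against the distance of the peak centre from the Il21 start in kb; dots are means of 3 libraries and lines run from the lowest to the highest library, blue for WT and red for Il21e_KO. Peaks inside the Il21 transcript stay near 0 in both groups, and the tested peaks on both sides keep similar heights.

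Across the genome no peak differed between Il21e_KO and WT at a false discovery rate (FDR) of 0.05. Of 43784 peaks that passed the filter, 0 (0%) were called by limma-trend, and the lowest adjusted p was 1.00. At an unadjusted p under 0.05 there were 776 peaks (1.77%), 251 higher (0.573%) and 525 lower (1.2%) in Il21e_KO. If nothing differed, a share near 0.05 would be expected at this threshold, and 1.77% lies below that. edgeR and DESeq2 on the recovered reads also called 0, with 709 (1.62%) and 100 (0.228%) peaks at an unadjusted p under 0.05. The 2 groups did not overlap at 3157 tested peaks (7.21%), 1250 of them higher (2.85%) and 1907 lower (4.36%) in the knockout. With the libraries in random order, 3 against 3 would separate at a share of 0.1. The median log2 fold change over all tested peaks was -0.02, with a median SE of 0.25. Absolute log2 fold changes over 1 were seen at 182 peaks, of which 150 were in the lowest of 4 equal groups of peaks by mean level.

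Differences by peak class turned with Il21e_KO 1. With all 6 libraries the median log2 fold change was 0.03 at the 11724 tested TSS peaks, -0.05 at 14341 intergenic peaks and -0.05 at 6822 peaks of later introns. Without Il21e_KO 1 it was -0.07 at TSS peaks, 0.03 at intergenic peaks and 0.04 in later introns. The share of TSS peaks that were lower in the knockout went from 42.6% to 63.7%. Without that library 2712 of 47323 tested peaks (5.73%) had an unadjusted p under 0.05, near the share of 0.05 expected if nothing differed. This share was 3.23 times that with all 6. Of the 2712 peaks, 1140 were higher (2.41%) and 1572 lower (3.32%), and 748 of the lower ones were TSS peaks. The groups did not overlap at 10163 peaks (21.5%), where only 2 against 3 libraries had to separate. In random order, 2 against 3 would do so at a share of 0.2. The 2 fits shared 449 peaks at that threshold, which is 57.9% of the 776 and 16.6% of the 2712.

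The 20 peaks of smallest p, 10 in each direction with 1 per gene, were spread over distal and promoter sites of unrelated genes. None passed the FDR threshold with all 6 libraries. Because they were picked by this contrast, that their groups did not overlap (20 of 20, against 7.21% of all tested peaks) is a description only. A distal peak is named here by the nearest TSS, which does not show that it acts on that gene. The Stat6 knockout libraries, which were not part of the fit, overlapped with WT at the Iqch, Amigo3, Zcchc11, Asb16 and Hymai peaks. At the rest they too lay outside the WT range, in the same direction as Il21e_KO. They held 18.8, 21.2 and 19.0 CPM at Sel1l and 3.41, 2.94 and 3.06 CPM at Mmp10. Differences at such peaks were thus not particular to Il21e_KO.

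Among the higher peaks, 5 of 10 lay at promoters, where TSS peaks were 26.8% of all tested peaks. The promoter peak of Hist1h3d, a histone H3 gene (chr13:23667594-23668055), held 6.73, 6.23 and 6.45 CPM in WT and 14.3, 12.6 and 11.7 CPM in Il21e_KO. The knockout libraries lay well above the narrow WT range, with a log2 fold change of 0.89 ± 0.26 (limma-trend, adjusted p = 1.00), and 0.81 ± 0.29 without Il21e_KO 1. The promoter of Zfp882, a zinc finger gene (chr8:74432072-74433195), held 17.1, 12.5 and 18.1 CPM in WT and 35.3, 23.9 and 25.5 CPM in Il21e_KO. Its log2 fold change was 0.79 ± 0.23 with all libraries and 0.62 ± 0.21 without Il21e_KO 1, the highest library. The promoters of Iqch and Amigo3, the latter an adhesion molecule, showed the same order, with 11.6 to 17.9 against 18.9 to 40.0 CPM at Iqch and 9.03 to 14.1 against 15.8 to 23.8 CPM at Amigo3. A peak 0.758 kb from the start of Zcchc11, which encodes an enzyme that adds uridines to RNA, held 4.90 to 9.03 CPM in WT and 10.5 to 15.2 CPM in Il21e_KO. Without Il21e_KO 1 the log2 fold changes of these 3 peaks went from 0.90 to 0.59 at Iqch, from 0.77 to 0.61 at Amigo3 and from 0.91 to 0.79 at Zcchc11.

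The other 5 higher peaks were distal or intronic. A peak 1380 kb from Sel1l, whose protein takes part in the degradation of misfolded proteins of the endoplasmic reticulum, held 8.57, 7.01 and 11.6 CPM in WT and 17.2, 18.9 and 18.3 CPM in Il21e_KO. It had the smallest p in this direction, with a log2 fold change of 0.95 ± 0.24 (limma-trend, adjusted p = 1.00), and 0.99 ± 0.25 without Il21e_KO 1. In intron 5 of Osbpl9, a lipid transfer protein gene, a peak held 7.95, 12.5 and 7.74 CPM in WT and 16.2, 21.4 and 19.4 CPM in Il21e_KO. Its log2 fold change was 0.97 ± 0.24, and it passed the threshold in 1 alternative, limma with weights per library (adjusted p = 0.0492), a fit that called 5 peaks (0.0114%). The peaks nearest to Smad2, which carries TGF-beta signals, and to Irs2, an adaptor of the insulin receptor, had log2 fold changes of 0.91 ± 0.26 and 1.06 ± 0.33. The peak near Rpp21, a subunit of ribonuclease P, had 0.81 ± 0.25. Without Il21e_KO 1 these were 0.89 ± 0.28, 1.26 ± 0.32 and 0.70 ± 0.28.

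Of the 10 lower peaks, 1 was at a promoter, and in 7 of the 10 Il21e_KO 1 was the lowest knockout library. It was also the lowest knockout library at 419 of the 525 lower peaks with an unadjusted p under 0.05. Of all tested peaks, the smallest p was found 56.4 kb from Pkdcc, which encodes a secreted tyrosine kinase (chr17:83557263-83558202). There, WT libraries had 13, 25 and 28 reads and Il21e_KO libraries 1, 3 and 4, or 7.95, 19.5 and 18.1 CPM against 0.953, 1.89 and 2.22 CPM. WT and knockout were far apart, with a log2 fold change of -2.53 ± 0.48 (limma-trend, adjusted p = 1.00). The 3 Stat6 knockout libraries, which were not part of the fit, held 7, 5 and 5 reads there, or 3.98, 2.94 and 3.06 CPM, also below the same WT libraries.

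The other 9 lower peaks had smaller differences. The peak 0.889 kb from the start of Asb16, a SOCS box gene, held 19.0, 14.01 and 13.5 CPM in WT and 3.81, 6.30 and 9.43 CPM in Il21e_KO, with a log2 fold change of -1.19 ± 0.31 and, without Il21e_KO 1, of -0.90 ± 0.25. The peak in intron 3 of Slco3a1, an anion transporter gene, held 10.4, 17.9 and 9.67 CPM in WT against 4.76, 4.41 and 4.44 CPM, the most even of the knockout triplets. Its log2 fold change was -1.25 ± 0.33, and -1.28 ± 0.31 without Il21e_KO 1. In intron 2 of Sgk1, a kinase induced by glucocorticoids, the values were 15.3, 17.9 and 17.4 CPM in WT and 4.76, 10.7 and 9.43 CPM in Il21e_KO. There the log2 fold change went from -1.003 ± 0.28 to -0.69 ± 0.23 without Il21e_KO 1. The remaining 6, at or near the PP2A subunit gene Ppp2r5c, the membrane protein gene Cmtm7, the non-coding RNA genes Hymai and Trp53cor1, the clock gene Arntl and the matrix protease gene Mmp10, had log2 fold changes from -0.79 at Arntl to -1.40 at Mmp10, and from -0.63 at Arntl to -1.34 at Mmp10 without Il21e_KO 1.

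**Figure D4:**
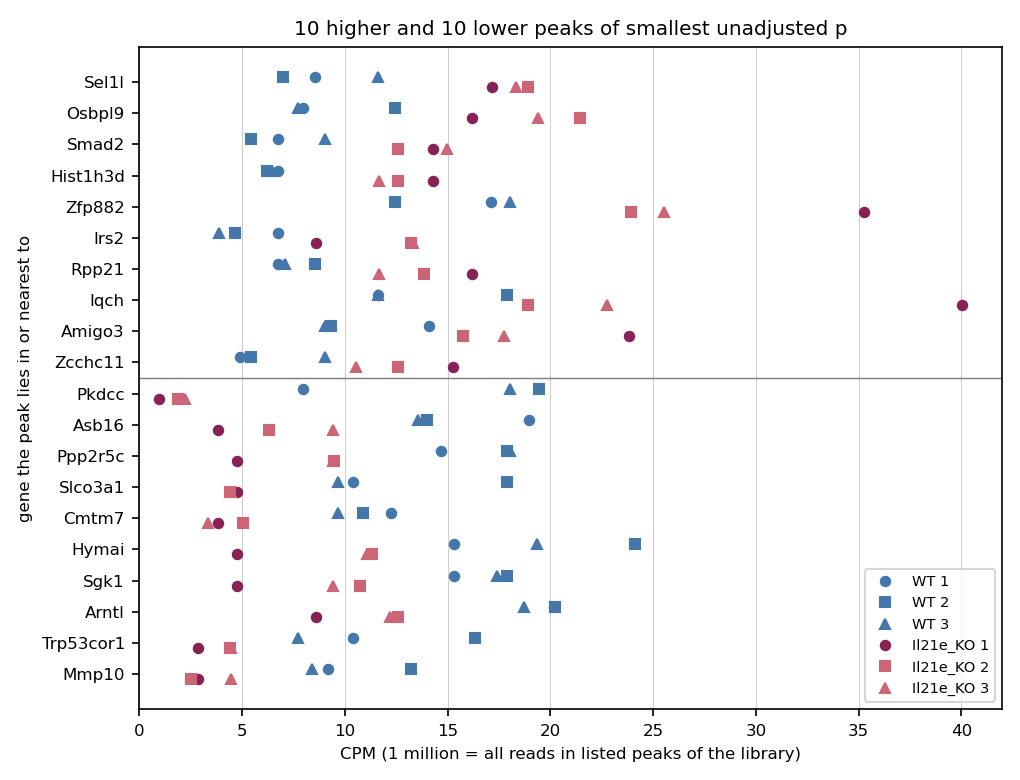
CPM of the 10 higher (above the line) and 10 lower (below it) peaks of smallest unadjusted p with a mean of at least 5 CPM, 1 symbol per library. Blue WT and red Il21e_KO symbols do not overlap in any row because the peaks were chosen by this contrast; 0 of the 20 passed the FDR of 0.05 with 6 libraries.

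Leaving out Il21e_KO 1 gave 4 called peaks among 47323 (0.00845%), 3 higher and 1 lower, by limma-trend with 2 against 3 libraries. The lower one was the Pkdcc peak (log2 fold change -2.31 ± 0.35, adjusted p = 0.0025). The higher ones were the promoter of the non-coding locus 1700030C10Rik, a peak in intron 6 of Letm1, which encodes a mitochondrial ion exchanger, and a peak 90.5 kb from Lrrc4, a synaptic adhesion gene. edgeR called 7 peaks (0.0148%) and DESeq2 called 0 in the same 5 libraries, DESeq2 with 197 peaks at an unadjusted p under 0.05. Across the 26 alternatives to the fit of all 6 libraries, adjusted p-values of the Pkdcc peak ran from 0.000113 to 1.00, and it was past the threshold in 7 of the 24 that tested it.

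At the 1700030C10Rik promoter (chr12:20821152-20822067) the WT libraries held 16, 19 and 20 reads and Il21e_KO 2 and 3 held 50 and 51, while Il21e_KO 1 held 8. That is 9.79, 14.8 and 12.9 CPM in WT against 7.62, 31.5 and 28.3 CPM, so the left-out library was the lowest of all 6. The log2 fold change was 0.60 ± 0.40 with all libraries and 1.21 ± 0.21 without it (limma-trend, adjusted p = 0.0263). The Stat6 knockout libraries held 42, 41 and 21 reads, or 23.9, 24.1 and 12.8 CPM, and overlapped with the WT range.

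The Letm1 peak (chr5:34102023-34103181) held 3, 3 and 2 reads in WT and 6, 32 and 19 reads in Il21e_KO, too few to pass the filter with all 6 libraries. In CPM the values were 1.84, 2.34 and 1.29 against 5.72, 20.2 and 10.5, with all knockout libraries higher. Without Il21e_KO 1 the log2 fold change was 2.49 ± 0.47 (limma-trend, adjusted p = 0.0454). At the Lrrc4 peak (chr6:28872249-28873794) the reads were 2, 20 and 8 in WT and 2, 27 and 68 in Il21e_KO. Replicates of 1 genotype differed there by more than the genotypes did, and the other 6 peaks within 15 kb all held more reads in WT 2 than in WT 1 or WT 3. Its log2 fold change was 1.05 ± 0.81 with all libraries and 2.11 ± 0.40 without Il21e_KO 1 (limma-trend, adjusted p = 0.0454).

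The genes that carry the IL-21 signal had open promoters in both genotypes. The Il21r promoter held 12.85, 16.3 and 14.2 CPM in WT and 11.4, 16.4 and 14.98 CPM in Il21e_KO, a log2 difference of -0.03 ± 0.23. For the common gamma chain gene Il2rg it was 0.08 ± 0.23, for the kinase genes Jak1 and Jak3 0.04 ± 0.21 and 0.20 ± 0.24, and for Stat3 0.26 ± 0.24. Without Il21e_KO 1 these were 0.11 ± 0.22 at Il21r, -0.10 ± 0.19 at Il2rg, -0.09 ± 0.17 at Jak1, 0.0007 ± 0.20 at Jak3 and 0.09 ± 0.20 at Stat3. The feedback inhibitor genes Socs1 and Socs3 gave 0.22 ± 0.26 and 0.37 ± 0.25, with Il21e_KO 1 the highest library at both (96.2 and 82.9 CPM). Without it Socs1 was at -0.14 ± 0.15 and Socs3 at 0.06 ± 0.16. All of these overlapped between the groups.

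Of the 35 fixed promoters 3 (8.57%) had groups that did not overlap, beside 5.14% of tested TSS peaks and 7.21% of all tested peaks. Without Il21e_KO 1 there were 7 (20%), beside 21.5% of all tested peaks. This separation is a description of single promoters. With all 6 libraries, those on the higher side were Stat5a and Stat5b, neighbouring genes that encode STAT5. The Stat5b promoter peak (chr11:100683452-100684199) held 12.2, 10.1 and 13.5 CPM in WT and 21.9, 14.5 and 18.9 CPM in Il21e_KO. The difference was 0.57 ± 0.23 on the log2 scale (limma-trend, adjusted p = 1.00; unadjusted p under 0.05), and 0.44 ± 0.23 without Il21e_KO 1, where it missed the unadjusted threshold too. The Stat5a promoter held 19.6, 18.7 and 19.3 CPM against 30.5, 23.9 and 22.7 CPM, also without overlap. Here the difference was 0.39 ± 0.21, past neither threshold, and 0.27 ± 0.20 without that library.

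On the lower side, the promoter of Cxcr5, the chemokine receptor that draws follicular helper cells to B cell follicles, was the third. It held 31.8, 23.4 and 21.3 CPM in WT and 15.2, 18.9 and 17.8 CPM in Il21e_KO (chr9:44334258-44335245). The log2 fold change was -0.52 ± 0.22 (limma-trend, adjusted p = 1.00) and -0.43 ± 0.20 without Il21e_KO 1 (limma-trend, adjusted p = 0.864), with an unadjusted p under 0.05 in both. The Stat6 knockout libraries held 15.3, 16.5 and 17.7 CPM at the Cxcr5 promoter, also below all WT libraries. At Stat5a and Stat5b they overlapped with WT. Bcl6, the master regulator of follicular helper cells, had 41.0, 35.04 and 34.8 CPM in WT and 44.8, 26.5 and 30.5 CPM in Il21e_KO, with overlap.

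In all, 35 of 38 cytokine, signalling and T cell genes chosen for this purpose had a tested promoter peak, with Cd40lg, Bach2 and Foxp3 without one. Of the 35, 0 were called and 2, Stat5b and Cxcr5, had an unadjusted p under 0.05, against 1.16% of tested TSS peaks and 1.77% of all tested peaks. Differences ran from -0.52 at Cxcr5 to 0.57 at Stat5b, with 21 higher and 14 lower. Without Il21e_KO 1 there were 16 higher and 19 lower, 0 called, and 6 of the 35 with an unadjusted p under 0.05. That compares with 7.83% of tested TSS peaks and 5.73% of all tested peaks. In both fits the share among the 35 was the larger one. The genes were chosen with earlier results of these data known, so this is a description only. Those 6 were Cxcr5, the naive cell genes Ccr7 (-0.55 ± 0.21), Tcf7 (-0.33 ± 0.13) and Foxo1 (-0.39 ± 0.19), Bcl6 (-0.36 ± 0.17) and the adhesion receptor gene Cd44 (0.37 ± 0.17). TSS peaks as a class were also lower in that fit. At Ccr7, the lymph node homing receptor gene, WT held 20.8, 21.02 and 19.3 CPM and Il21e_KO 30.5, 11.97 and 15.5 CPM, so that Il21e_KO 1 was the highest and the other 2 the lowest of the 6 libraries. Tcf7, which encodes the naive and memory cell factor TCF1, held 78.9, 87.2 and 64.5 CPM against 64.8, 63.0 and 58.3 CPM, with 1 knockout library just above the lowest WT library.

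**Figure D5:**
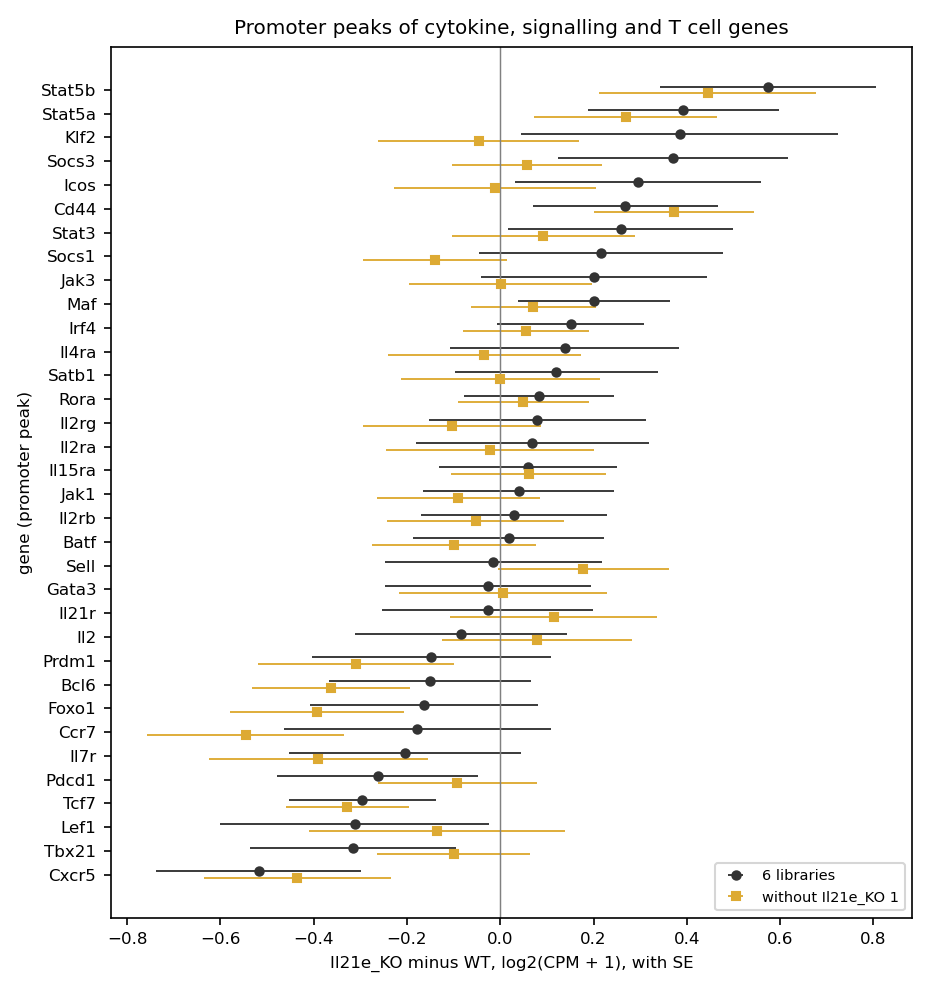
Difference of Il21e_KO minus WT at the promoter peaks of the fixed genes in log2(CPM + 1), with the SE of the fit as bars; black circles use all 6 libraries and yellow squares leave out Il21e_KO 1. With all 6 libraries the values run from -0.52 (Cxcr5) to 0.57 (Stat5b), and those of Klf2, Socs1 and Icos cross 0 when the library is left out.

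In 21 gene lists holding 374 different genes, 0 peaks were called with or without Il21e_KO 1. Lists took the peaks inside a gene and intergenic peaks within 100 kb, and they are described by counts beside the 1.77% of all tested peaks at an unadjusted p under 0.05. Without Il21e_KO 1 the share of all tested peaks was 5.73%, and the lists' counts are given for both fits. For the IL-21 receptor and signal genes 2 of 139 tested peaks (1 higher, 1 lower) reached that p, and 11 of 151 (5 higher, 6 lower) without Il21e_KO 1. For the targets of IL-21 there was 1 of 90 (lower), and 4 of 92 (all lower) without that library. The common gamma chain cytokines and receptors had 0 of 69, and 5 of 76 (1 higher, 4 lower) without it. These shares lie near that of all tested peaks in the same fit. A list of 18 genes put down as neighbours of Il21, of which Pp2d1 and Tnip3 lie on other chromosomes, had 1 of 42 (higher), and 1 of 44 (lower) without Il21e_KO 1. The higher peak was the promoter of Nudt6, a nudix hydrolase gene antisense to Fgf2, with 37.3, 39.7 and 28.4 CPM in WT and 73.4, 41.6 and 42.2 CPM in Il21e_KO; the step between the groups was much smaller without Il21e_KO 1 (log2 fold change 0.53 ± 0.23 and 0.26 ± 0.17).

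Within the IL-21 signal list the lower peak was in intron 1 of Ptpn11, which encodes the phosphatase SHP-2. It held 15, 9 and 16 reads in WT and 2, 9 and 2 reads in Il21e_KO, that is 9.18, 7.01 and 10.3 against 1.91, 5.67 and 1.11 CPM. The log2 fold change was -1.50 ± 0.55 (limma-trend, adjusted p = 1.00) and -1.38 ± 0.42 without Il21e_KO 1 (limma-trend, adjusted p = 0.787). The lists of T cell fates gave 5 of 236 peaks for follicular helper genes (1 higher, 4 lower), 1 of 78 for Th1 (lower), 1 of 55 for Th2 (higher), 4 of 99 for Th17 (2 higher, 2 lower) and 0 of 100 for regulatory T cells. Without Il21e_KO 1 the counts were 16 of 252 for follicular helper genes (7 higher, 9 lower), 5 of 83 for Th1 (lower), 2 of 60 for Th2 (1 higher, 1 lower), 8 of 108 for Th17 (5 higher, 3 lower) and 4 of 109 for regulatory T cells (2 higher, 2 lower). The Th1 peak lay 17.7 kb from Ifng, the gene of interferon gamma, with 9.18, 10.9 and 9.67 CPM in WT and 5.72, 5.04 and 6.66 CPM in Il21e_KO. It differed by -0.69 ± 0.30 with all libraries and by -0.68 ± 0.30 without Il21e_KO 1. In the follicular helper list the higher peak lay in intron 9 of Il6ra, a subunit of the IL-6 receptor, with 10.4, 10.1 and 7.09 CPM in WT and 36.2, 13.2 and 14.4 CPM in Il21e_KO, the highest value again in Il21e_KO 1. This log2 fold change went from 0.998 to 0.55 ± 0.26 without that library.

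The list of naive and quiescent cell genes had 5 of 497 peaks (1 higher, 4 lower) at that p, and 32 of 538 (9 higher, 23 lower) without Il21e_KO 1. Its lower peak of smallest p, in a 5′ untranslated exon of Elf1, an ETS factor gene, held 21.4, 19.5 and 16.8 CPM in WT and 12.4, 13.2 and 11.7 CPM in Il21e_KO. Its log2 fold change was -0.59 ± 0.21 with all libraries and -0.58 ± 0.22 without Il21e_KO 1. Early T cell receptor response genes had 1 of 179 (higher), genes of memory and effector cells 0 of 111, interferon response genes 0 of 68 and ubiquitously expressed genes 2 of 81 (lower). In the fit without Il21e_KO 1 the early response genes had 18 of 185 (4 higher, 14 lower), the memory and effector genes 10 of 115 (2 higher, 8 lower), the interferon response genes 2 of 72 (lower) and the ubiquitous genes 7 of 87 (lower). As with TSS peaks in that fit, lower peaks outnumbered higher ones in these 4 lists. Medians of the 21 lists ran from -0.15 to 0.03, beside -0.02 for all tested peaks, and 9 of the 21 changed sign without Il21e_KO 1.

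Summed over all their listed peaks, 2 of the 21 lists (9.52%) did not overlap between the groups, beside 7.21% of single tested peaks. Follicular helper genes held 5204, 5208 and 5218 CPM in WT and 5059, 5085 and 5011 CPM in Il21e_KO, a ratio of means of 0.970. Genes of memory and effector cells held 2278, 2301 and 2324 CPM against 2238, 2252 and 2225 CPM, a ratio of 0.973. Without Il21e_KO 1 there were 4 such lists (19.0%), beside 21.5% of single peaks, with ratios from 0.969 to 0.980; the others were the common gamma chain and the naive cell list. A sum over many peaks is not the same unit as a single peak, and some lists share genes, so no conclusion is drawn from these shares. In 8 of the 21 lists Il21e_KO 1 was the highest of the 6 libraries and in 10 it was the lowest.

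The labelled cell type was checked against marker genes. Peaks of the 17 T cell markers summed to between 3249 and 3403 CPM in WT and between 3237 and 3575 CPM in Il21e_KO. B cell markers summed to 505 to 644 and 399 to 598 CPM, myeloid markers to 1128 to 1267 and 1108 to 1200 CPM, NK cell markers to 754 to 789 and 736 to 838 CPM, and CD8 T cell markers to 979 to 1016 and 824 to 1005 CPM. Erythroid and platelet markers summed to 274 to 328 and 215 to 358 CPM, and stromal and endothelial markers to 367 to 397 and 280 to 397 CPM. All of these ranges overlapped. At an unadjusted p under 0.05 were 1 of 154 T cell, 0 of 50 CD8 T cell, 1 of 26 B cell, 2 of 38 NK cell, 0 of 54 myeloid, 0 of 13 erythroid and 0 of 16 stromal marker peaks. Leaving out Il21e_KO 1 gave 7 of 166, 1 of 52, 0 of 31, 1 of 38, 4 of 58, 1 of 14 and 3 of 19 in the same order. Of the 18 B cell markers 16 had a listed peak, and the level over a gene's own peaks in WT ran from 1.53 CPM at Cd79a to 60.9 CPM at Ebf1, with a median of 13.8 CPM. For the 10 NK cell markers with a peak it ran from 1.11 CPM at Ncr1 to 54.8 CPM at Il2rb, and for the 15 myeloid markers from 1.62 CPM at Lyz1 to 125 CPM at Flt3. T cell markers ran from 23.9 CPM at Lat to 449 CPM at Cd247, with a median of 82.6 CPM, so that the ranges of the lists overlapped. Of the 23 myeloid markers 15 had a listed peak, and of the 17 erythroid and platelet markers 10. Lyz2, S100a8, S100a9 and the globin genes had none, while Itgam (85.4 CPM in WT), Cd14 (39.4 CPM) and Tal1 (44.7 CPM) were among those with peaks.

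Larger units gave no call with all 6 libraries. By chromosome, the shares of reads overlapped between the groups on all 21 chromosomes, with the lowest exact permutation p at 0.2 (0.988 after adjustment over the chromosomes). Chromosome 3, which carries Il21, took 5.03% ± 0.02 of WT reads and 5.05% ± 0.02 of Il21e_KO reads (SD, n = 3). Reads summed over 2023 bins of 1 Mb gave 0 calls (0%), and 0 of 2059 without Il21e_KO 1.

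Reads summed over the peaks of each gene, a unit chosen after the peak results were seen, gave 0 calls among 14566 genes (0%) with all libraries and 15 among 14764 (0.102%) without Il21e_KO 1. Of these 15, 14 were higher in Il21e_KO and 1, Gm4951, was lower. In all 15 the left-out library was lower than both other knockout libraries. In 9 it lay within the WT range and in 6 below all WT libraries. The median of their tallest peak was 7.70 CPM, against 27.2 CPM over all tested genes. Gm4951, a gene resembling interferon-induced GTPases, held 15.3, 27.2 and 17.4 CPM in WT and 1.91, 6.93 and 6.66 CPM in Il21e_KO, and these did not overlap. The log2 fold change was -1.86 ± 0.44 with all libraries (limma-trend, adjusted p = 1.00) and -1.39 ± 0.27 without Il21e_KO 1 (limma-trend, adjusted p = 0.00858). edgeR called 19 genes (0.129%) in those 5 libraries, the same 15 among them.

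Without Il21e_KO 1, the smallest p among the summed genes was that of Zfp982, a zinc finger gene, with 66 peaks. Its peaks summed to 73.4, 77.9 and 127 CPM in WT and 89.6, 161 and 149 CPM in Il21e_KO, so WT 3 lay above Il21e_KO 1. Its log2 fold change was 0.78 ± 0.12 (limma-trend, adjusted p = 0.00191). WT 3 was the highest WT library for 10 of the 15 genes. Zfp982, Zfp985 and the prolactin family gene Prl2c3 belong to families of similar copies, among which the deposited counts could have split reads, so these values are uncertain. With all 6 libraries, Gimap4, which encodes a GTPase of lymphocytes, was among the lower genes of smallest p. It held 130, 131 and 132 CPM in WT and 99.1, 106 and 107 CPM in Il21e_KO over 10 peaks, a log2 fold change of -0.33 ± 0.09 (limma-trend, adjusted p = 1.00). Without Il21e_KO 1 it was -0.30 ± 0.09 (limma-trend, adjusted p = 0.425). Tox, a factor of T cell development and exhaustion, had 60 peaks summing to 455, 458 and 484 CPM in WT and 401, 417 and 423 CPM in Il21e_KO (log2 fold change -0.17 ± 0.05, limma-trend, adjusted p = 1.00), and the value without Il21e_KO 1 was -0.15 ± 0.05 (limma-trend, adjusted p = 0.558). Both stood below WT in all 3 libraries by amounts that the test over all genes did not call.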

How the data were processed

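ATAC-seq libraries were made from 50000 naive CD4+ T cells each by Nextera tagmentation and read with 75-base paired ends, per the labels' protocols. Per the submitters' processing notes, Bowtie 1.3.0, MACS2 2.0 and HOMER were used on mm9, without the role of each. The authors deposited 1 table of 115727 peaks in CPM, in which every library sums to 1000000 over the listed peaks. All values (100%, tolerance 0.01 read) were whole multiples of the column's smallest step, taken as 1 read; this gave whole reads, although CPM cannot show that the step is 1 read. One read equalled 0.555 to 0.953 CPM, and a count of 0 allows up to 3 reads (1.66 to 2.86 CPM), counting error only. The gene columns' headers were shifted and were read by content; intergenic peaks carry no gene there and took the nearest TSS listed.

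Peaks passed edgeR's filterByExpr (edgeR 4.0.16, minimum count 10, total 15): 43784 tested, 71943 set aside. Differences were fitted on log2(CPM + 1) over the 6 libraries by limma-trend (version 3.58.1 in R 4.3.3), 2-sided, with Benjamini-Hochberg adjustment and an FDR of 0.05. The offset of 1 understates fold changes of low peaks. Library measures had exact permutation tests. Alternatives covered offsets, filters, normalisation, thinning, edgeR, DESeq2 1.42.0, limma-voom, library weights, a TSS covariate, left-out libraries and the replicate block. The procedure was also run on simulated reads, drawn from the same peak shares in every library apart from seeded differences. These lack the TSS shift of Il21e_KO 1, so they do not show how the fit handles that library. Lists were described, not tested.

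The comparison, lists and rules were chosen with earlier results of these data known. Named peaks were those past the FDR with all libraries (none) or without Il21e_KO 1, the 10 of smallest p in each direction with a mean of at least 5 CPM and 1 per gene (2 higher and 1 lower clone names skipped), the promoter peaks of 38 fixed genes, peaks around Il21 and, per list, the 2 of smallest p in each direction. Genes of summed reads were named after their values were seen. Single items counted among the promoters and markers are not reported here.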

Additional observations from a re-analysis of the deposited data

How the results depend on the processing

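The count of called peaks stayed at 0 in 19 of 26 alternatives, among them other offsets, filters and normalisations, thinning to the shallowest library, edgeR, DESeq2, limma-voom, all 9 libraries and leaving out any library other than Il21e_KO 1. With libraries left out in turn it ran from 0 to 4, where 4 is without Il21e_KO 1. It was 5 with library weights, 1 with the TSS share as a covariate, 4 without Il21e_KO 1 with the other 8 libraries in 1 fit, 7 without it by edgeR, 1 without it and WT 1, and 26 without it with the TSS covariate, an alternative chosen after seeing the data; the cause was not tested. Counts at an unadjusted p under 0.05 were 776 with all libraries, 100 by DESeq2, 4884 without a filter, 364 with at least 20 reads in 3 libraries, 1329 and 1204 with quantile and loess normalisation, 1698 with all 9 libraries, 3069 with library weights, 2604 with the TSS covariate and from 445 to 2712 with a library left out, 2712 without Il21e_KO 1. Genes of summed reads called were 0 with all libraries, by limma-trend and by edgeR, and 15 and 19 without Il21e_KO 1. Chromosomes whose groups did not overlap went from 0 to between 1 and 6 with a library left out.

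The knockout minus WT difference in reads ran from -171576 to 204896 with a library left out, and was 62054.8 without WT 1 and 20269.8 without WT 3. The TSS share difference ran from -1.89 to 3.12 percentage points, the negative value without Il21e_KO 1, and the difference in peaks without a read from -5386 to 6033. With a library left out in turn, the promoter difference at Ccr7 ran from -0.55 (without Il21e_KO 1) to 0.0941 (without Il21e_KO 2) and at Bcl6 from -0.36 to 0.0052, by the same libraries. Of the 35 promoter peaks, 13 kept their sign in all fits, Stat5a, Stat5b, Cxcr5, Tcf7 and Cd44 among them, and 13 changed sign without Il21e_KO 1. The labels do not say whether the replicate numbers pair the samples. Correlations of same-numbered deviations were 0.221, -0.112 and 0.271, which does not settle it. With the replicate block 0 peaks were called, with 1244 at an unadjusted p under 0.05. The median SE was 0.36 in the lowest of 4 groups of peaks by level and 0.21 in the highest. Differences well above that size were not called either, such as -2.53 ± 0.48 at the Pkdcc peak with all 6 libraries. The 0 calls therefore do not exclude large differences at single peaks.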
